A study of Rattus norvegicus with 11 samples.

Results

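The antioxidant genes under the transcription factor NRF2 were examined in the ileum of rats with severe acute pancreatitis (SAP). The set was a list of 10 genes chosen by name, with earlier results of these data known. It held Nfe2l2, which encodes NRF2 itself, and 9 genes known as its targets (Hmox1, Nqo1, Gclc, Gclm, Slc7a11, Txnrd1, Srxn1, Gpx2 and Sod2). All 10 were found among the 24481 genes of the read count table and the 24205 genes of the FPKM table. The deposited set holds 11 libraries of ileum RNA from SD rats of 6 to 8 weeks, and the study's methods describe the animals as male. In the SAP group (4 libraries), 3% sodium taurocholate was injected backwards into the pancreatic duct, and a vehicle of saline, ethanol and Tween-80 was given intraperitoneally 24 h after surgery. In the JZL184 group (4 libraries), rats with SAP received JZL184, an inhibitor of monoacylglycerol lipase, at 10 mg/kg in this vehicle at that time. The control group (3 libraries) received the vehicle without SAP, and whether these rats had a sham operation is not stated. All animals were sampled 24 h after the injection, no genetic change is named for any group, and no group received JZL184 without SAP. The labels call the controls "control plasmid" and title the SAP libraries "oil", while the protocol describes only this vehicle.

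NRF2 is a transcription factor that is kept low in resting cells, because KEAP1 binds it and hands it to a ubiquitin ligase for degradation. Oxidants and electrophiles modify KEAP1, NRF2 then accumulates, pairs with small MAF proteins and binds antioxidant response elements near its target genes, while BACH1 competes for such elements. The targets make glutathione, recycle thioredoxin, break down heme, reduce quinones and remove peroxides. In the gut this programme is known for protecting the epithelium from dietary electrophiles and from oxidants made during inflammation.

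The antioxidant response element has the core TGACNNNGC, and the form TGAGTCAGC, which holds the AP-1 site TGAGTCA, is also well known. Neither form contains the other. Both were searched on both strands of the RefSeq promoter windows of rat genes (GRCr8), which run from 250 bases before to 50 bases after each start. The RefSeq table held 10 windows for 9 members, and Hmox1 was not among them. A match lay in 6 of these 10 windows, in Sod2, Gclm, Nfe2l2, Srxn1, Gpx2 and 1 of the 2 windows of Txnrd1. The core lay in 12.1% and the second form in 0.4% of all 33469 windows of this length, and either in 12.4%. The matches that began before the start are shown with the surrounding bases, because NRF2 is known to bind such letters, although a match is a description and not a binding site, with the matched bases in capitals and each window written 5′ to 3′ on the strand of the gene.
Sod2 (chr1:50050175-50050223, minus strand, match from 35 bases before the start): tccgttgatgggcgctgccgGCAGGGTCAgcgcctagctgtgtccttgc
Gclm (chr2:213031943-213031991, plus strand, match from 172 bases before the start): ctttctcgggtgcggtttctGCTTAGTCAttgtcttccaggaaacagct
Srxn1 (chr3:161064787-161064815, plus strand, match from 5 bases before the start and running across it): cgcgacctgcaaactcacccTGAGTCAGC
Gpx2 (chr6:101230034-101230066, minus strand, match from 13 bases before the start): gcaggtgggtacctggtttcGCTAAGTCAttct
Txnrd1 (chr7:22755954-22756002, minus strand, match from 78 bases before the start): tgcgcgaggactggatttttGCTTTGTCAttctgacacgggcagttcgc
The match in Sod2, Gclm, Gpx2 and Txnrd1 lay on the opposite strand, so that the core is read there as its reverse complement. The match of Nfe2l2 began at base 39 of the transcript and is not shown. No match was found in the windows of Slc7a11, Gclc and Nqo1 or in the second window of Txnrd1, which says only that these letters are not in those bases.

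Between 26341299 and 33847135 reads per library lay on genes. Control libraries 1 and 2 were close to counting noise, with a chi-square per gene of 2.81 against 77.49 to 563.06 in the other pairs within groups, and were combined into 1 sample (control 1+2), which left 2 control samples. SAP library 2 had 20 reads summed over Kdm5d, Uty and Eif2s3y of the Y chromosome, against 1222 to 4665 in the other libraries. It had 7826 reads on a gene with a LOC symbol that was taken as Xist, against 0 to 56 in the other libraries. SAP libraries 1 and 2 also held reads of longer genes, with a mean gene length per read of 3857 and 3942 bases against 2754 to 3105. All 7 epithelial markers were present in every library, but so were all 7 markers of smooth muscle, so the RNA was that of the ileal wall although the labels name intestinal epithelial cells. In such bulk RNA, fewer cells of a type and less RNA per cell cannot be told apart. The labels do not tie each library to an animal, so p-values measure only the spread between these samples, which may be technical.

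The members differed widely in level. By mean FPKM, which is normalised for gene length, Gpx2 stood first in the control group with 152 ± 45.6 (SD, n = 2), followed by Sod2 with 56.3 ± 3.24. In the SAP group Sod2 stood first with 145 ± 62 (n = 4), beside Gpx2 with 127 ± 17.8, a gap within the spread. In the JZL184 group Sod2 reached 337 ± 93.3 (n = 4) and Gpx2 187 ± 101. Hmox1 had a mean of 5.97 ± 1.23 in the control and 12.4 ± 4.54 in the SAP group, below most members, and with 41.6 ± 29.5 followed Sod2 and Gpx2 in the JZL184 group, a rank that its spread leaves shared with Txnrd1 and Nqo1. Slc7a11 was last in every group, with a mean of 0.075 ± 0.0354 in the control, 0.378 ± 0.342 in the SAP and 0.61 ± 0.324 in the JZL184 group. The members between these had means of 4.24 to 19.6 in the control group, and most of these neighbours did not differ beyond their spread.

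**Figure D1:**
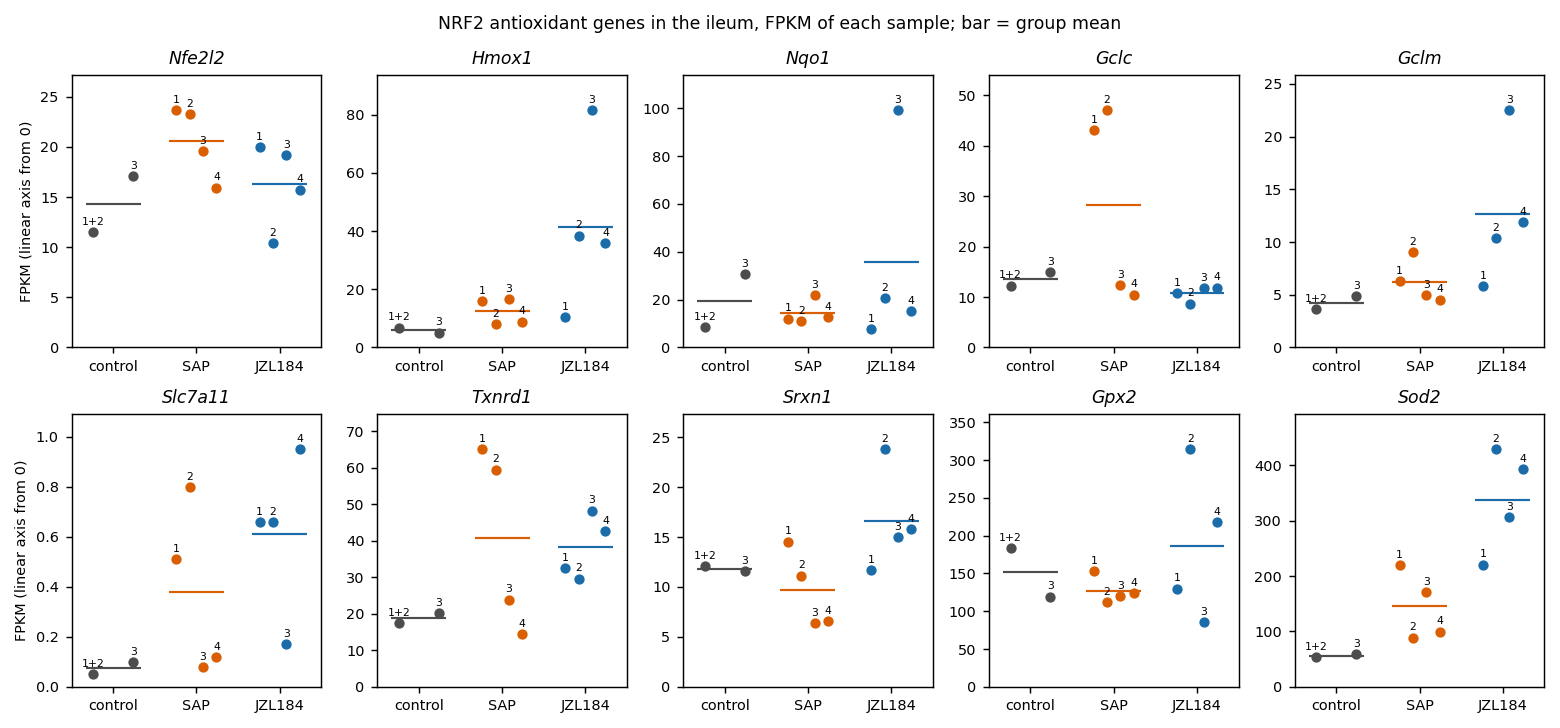
FPKM of the 10 genes in each sample, on linear axes from 0, with points numbered by library, control libraries 1 and 2 shown as their mean, and bars for group means. All 4 JZL184 libraries of Sod2 lie between 220.63 and 428.75, above both control samples, while Gclc splits the SAP group into libraries 1 and 2 at 43.1 and 47.1 and libraries 3 and 4 at 12.4 and 10.5.

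The first comparison asked how SAP changed these genes. Compared with control, 7 members had a higher fitted level under SAP and 3 a lower one, with a median log2 fold change of 0.60 against 0.06 over all genes tested. None of the 10 passed the test of edgeR with Benjamini-Hochberg adjustment over all genes, in which 0% of 16029 genes were called, and their edgeR adjusted p ran from 0.459 to 0.591. DESeq2 called none of the 10 either, where it called 1.23% of 16971 genes, and neither did limma-voom, which called 0.0873% of 16029. At an unadjusted p below 0.05, 1 member was higher (Sod2), against 9.09% of all genes. Overlap between groups, for members and for all genes, was counted on normalised read counts and not on FPKM. By these counts the same gene was the 1 member whose samples did not overlap, which held for 23.2% of all genes. In FPKM the samples of Hmox1 did not overlap either, at 5.1 and 6.83 in the control and 8.1 to 16.7 in the SAP group. With 4 samples against 2, the exact permutation test of a single gene cannot go below 0.0667.

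The second comparison asked what JZL184 changed in rats with SAP. Of the members, 8 had a higher fitted level in the JZL184 group and 2 a lower one, with a median log2 fold change of 0.98 against -0.05 over all genes. None passed the edgeR test, which called 0% of 15308 genes, and the edgeR adjusted p of the members ran from 0.109 to 0.875. DESeq2 called 2 of the 10 higher (Hmox1 and Sod2), where it called 6.98% of 18385 genes, and limma-voom called 1 (Sod2), where it called 4.57% of 15308. At an unadjusted p below 0.05, 4 members were higher (Hmox1, Gclm, Srxn1 and Sod2) and 1 lower (Gclc), against 21.3% of all genes. Only Sod2 among the 10 showed no overlap between the groups, which held for 11.8% of all genes. The smallest possible exact permutation p was 0.0286 here.

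The third comparison set the JZL184 group against the control group. It shares the JZL184 libraries with the second comparison and the control samples with the first, so the 3 are not independent. Here 9 members had a higher fitted level in the JZL184 group and 1 a lower one, with a median log2 fold change of 0.90 against 0.08 over all genes. Sod2 was the 1 member called by edgeR, where 2.16% of 15916 genes were called. DESeq2 called 4 of the 10 higher (Hmox1, Gclm, Slc7a11 and Sod2), against 10.8% of 17598 genes, and limma-voom called 5 (these 4 and Txnrd1), against 18.3% of 15916. At an unadjusted p below 0.05, these 4 and Txnrd1 were higher, against 26.3% of all genes. The same 5 genes had no overlap between the groups and lay higher, and Gclc had none and lay lower, while 38.3% of all genes had no overlap. These counts moved with single libraries. The edgeR fit called 5 members without JZL184 library 1, where it called 1867 of 15623 genes, and 2 without JZL184 library 3 (860 of 15762). It called 0 members without JZL184 library 2 (25 of 15836 genes) or JZL184 library 4 (78 of 15827). So the calls over all genes moved too. Fits without a control sample leave 1 control and are not counted here.

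**Figure D2:**
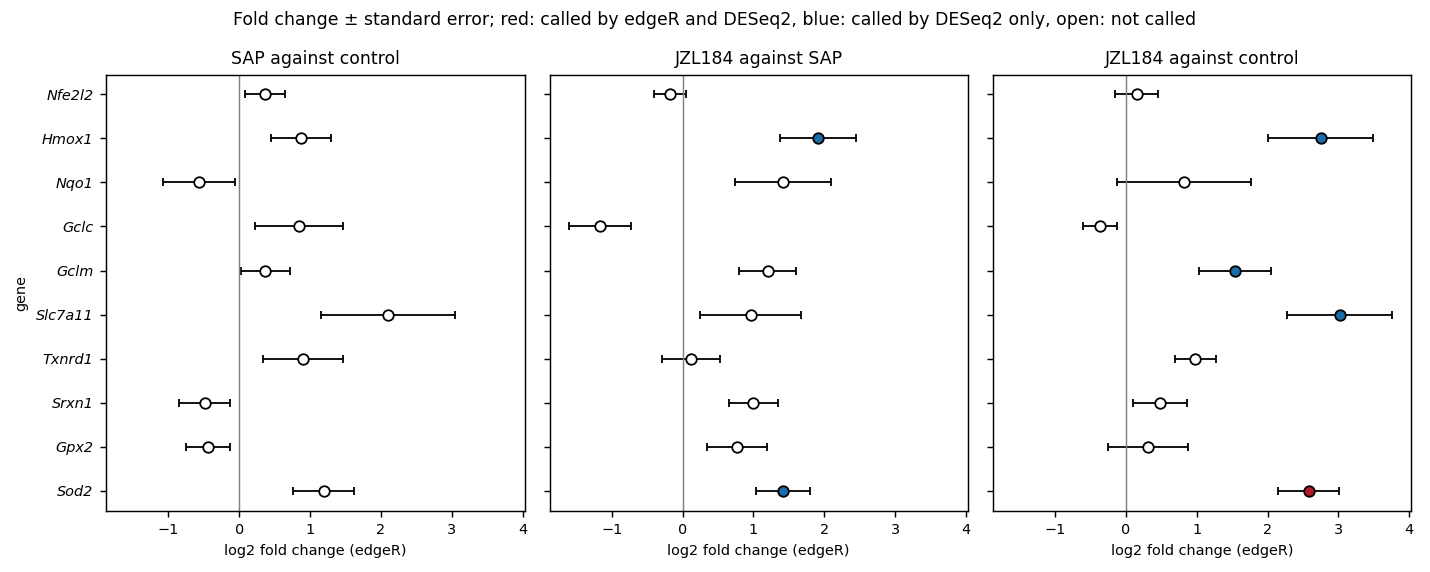
Log2 fold change of each gene in the 3 comparisons from edgeR, with bars for 1 standard error, where red points passed the test in edgeR and DESeq2, blue points in DESeq2 only and open points in neither. Sod2 in the JZL184 group against control is the only red point, at 2.58.

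Nfe2l2, the gene of the regulator on chromosome 3 (chromosomes as in the files, which use mRatBN7.2), passed in no comparison. It stood at 11.5 FPKM in control 1+2 and 17.1 in control 3, at 23.7, 23.2, 19.6 and 15.95 in SAP libraries 1 to 4, and at 20.01, 10.4, 19.2 and 15.7 in JZL184 libraries 1 to 4. The 3 groups overlapped. Nfe2l2 had a log2 fold change of 0.36 ± 0.28 (SE) in SAP against control (edgeR adjusted p = 0.529), -0.18 ± 0.23 in JZL184 against SAP (edgeR adjusted p = 0.65) and 0.15 ± 0.30 in JZL184 against control (edgeR adjusted p = 0.782). Its transcript is long, 6760 bases, and when each library's trend on gene length was removed the value of SAP against control became -0.01. NRF2 protein, which KEAP1 controls, was not measured. Keap1 mRNA averaged 21.2 ± 2.1 FPKM in the control (n = 2), 15.3 ± 3.64 in the SAP (n = 4) and 15.1 ± 3.39 in the JZL184 group (n = 4). All 8 libraries of rats with SAP lay below both control samples for Keap1, but JZL184 library 3, at 19.67 FPKM, was nearly equal to control 3, at 19.75. Groups did not overlap for 23.2% of all genes in SAP against control and 38.3% in JZL184 against control. The log2 fold changes of Keap1, -0.63 ± 0.35 and -0.53 ± 0.28 against control, did not pass (edgeR adjusted p = 0.461 and 0.264). Bach1, the gene of the competing repressor, was highest in SAP libraries 1 and 2, at 4.82 and 4.19 FPKM, against 0.92 to 2.61 in the other libraries and control samples, and did not pass in any comparison.

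Sod2, the manganese superoxide dismutase of mitochondria on chromosome 1, which inflammatory cytokines are also known to induce, was the only member whose groups did not overlap in any of the 3 comparisons. It stood at 54.0 FPKM in control 1+2 and 58.6 in control 3, at 220.01, 88.8, 172 and 99.8 in SAP libraries 1 to 4, and at 220.63, 429, 306 and 393 in JZL184 libraries 1 to 4. The highest SAP library and the lowest JZL184 library were nearly equal. In JZL184 against control Sod2 rose 5.99-fold in mean FPKM, with a log2 fold change of 2.58 ± 0.43 (edgeR adjusted p = 0.0285, DESeq2 adjusted p = 3.9e-07, higher in 4 of 4 libraries), and the exact two-sided permutation p was 0.0667, the smallest possible. In JZL184 against SAP the log2 fold change was 1.42 ± 0.38 (edgeR adjusted p = 0.109, DESeq2 adjusted p = 0.0144) and the exact permutation p 0.0286. In SAP against control it was 1.19 ± 0.43 (edgeR adjusted p = 0.459, DESeq2 adjusted p = 0.206). The call against control ended without control 1+2 (edgeR adjusted p = 0.463), control 3 (0.189), JZL184 library 2 (0.0632) or JZL184 library 4 (0.074), with a log2 fold change of 2.37 to 2.57 in these 4 fits. The summed FPKM of 7 neutrophil markers, led by S100a8 and S100a9, was 3.25 to 3.69 in the control, 10.4 to 82.6 in the SAP and 25.9 to 252 in the JZL184 group. Of the other markers, Cd177 and Fcgr3a reached at most 6.9 and 6.65 FPKM, and Csf3r, Mpo and Cxcr2 at most 1.58, 0.56 and 0.39. The sum was 82.6, 10.4, 53.3 and 11.7 in SAP libraries 1 to 4, where Sod2 was also higher in libraries 1 and 3. It was 66.5, 252, 25.9 and 36.1 in JZL184 libraries 1 to 4, where both were highest in library 2 but libraries 3 and 4 had the lowest sums with more Sod2 than library 1. The part of these cells in the level of Sod2 was not tested.

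Hmox1, heme oxygenase 1 on chromosome 19, which splits heme into biliverdin, iron and carbon monoxide, followed Sod2 most closely among the members. It stood at 6.83 FPKM in control 1+2 and 5.10 in control 3, at 15.9, 8.10, 16.7 and 8.87 in SAP libraries 1 to 4, and at 10.4, 38.5, 81.6 and 35.9 in JZL184 libraries 1 to 4. JZL184 libraries 2 to 4 lay above every SAP library, while JZL184 library 1 lay among them. Against SAP the log2 fold change was 1.91 ± 0.54 (edgeR adjusted p = 0.118, DESeq2 adjusted p = 0.0132), and the exact permutation p was 0.0857. Against control it was 2.75 ± 0.74 (edgeR adjusted p = 0.0775, DESeq2 adjusted p = 4.2e-04). SAP against control gave 0.87 ± 0.42 (edgeR adjusted p = 0.459). Without JZL184 library 1, edgeR called Hmox1 in JZL184 against SAP at a log2 fold change of 2.25 (edgeR adjusted p = 0.0307). Without JZL184 library 3 the value became 1.44 (edgeR adjusted p = 0.225). The summed FPKM of 7 macrophage markers, cells known for heme oxygenase, was 303 to 349 in the control, 144 to 366 in the SAP and 89.8 to 249 in the JZL184 group, and that of 7 erythrocyte markers was 130 to 322, 51.8 to 350 and 236 to 693. The erythrocyte sum was highest, at 693, in JZL184 library 3, as was Hmox1, but it was lower in JZL184 library 2, at 236, than in control 3, SAP library 3 and SAP library 4, at 322, 350 and 281, where Hmox1 was lower. Its part in the result was not tested.

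Nqo1, a quinone reductase on chromosome 19 often read as the standard NRF2 target, was dominated by 1 library. It stood at 8.63 FPKM in control 1+2 and 30.5 in control 3, at 12.1, 10.9, 21.99 and 12.5 in SAP libraries 1 to 4, and at 7.71, 20.6, 99.24 and 15.4 in JZL184 libraries 1 to 4. JZL184 library 1 had the lowest value of all and library 3 the highest. Nqo1 had a log2 fold change of -0.57 ± 0.51 in SAP against control, 1.42 ± 0.68 in JZL184 against SAP and 0.82 ± 0.94 in JZL184 against control (edgeR adjusted p = 0.572, 0.258 and 0.604). Without JZL184 library 3, the values of both comparisons that contain it became 0.24 against SAP and -0.35 against control. JZL184 library 3 also had the lowest sum of 7 epithelial markers, 6477 FPKM, against 13237 to 15833 in the other JZL184 libraries, and the highest sums of the smooth muscle markers, 2136 against 378 to 962, and of the erythrocyte markers, 693 against 236 to 524. Whether these bear on Nqo1 was not tested.

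Slc7a11, Gclc and Gclm act in the synthesis of glutathione. Slc7a11, on chromosome 2, encodes the cystine importer xCT and was low throughout, at 0.05 FPKM in control 1+2 and 0.10 in control 3, at 0.51, 0.80, 0.08 and 0.12 in SAP libraries 1 to 4, and at 0.66, 0.66, 0.17 and 0.95 in JZL184 libraries 1 to 4. Its long transcript of 12810 bases still gave 14, 23 and 38 reads in control libraries 1 to 3, 29 to 311 in the SAP and 62 to 324 in the JZL184 libraries. SAP libraries 1 and 2 and JZL184 libraries 1, 2 and 4 were high, and all JZL184 libraries lay above both control samples. Against control, the JZL184 group differed by a log2 fold change of 3.02 ± 0.74 (edgeR adjusted p = 0.0657, DESeq2 adjusted p = 1.2e-04). SAP against control gave 2.10 ± 0.94 (edgeR adjusted p = 0.459), and 0.36 without SAP libraries 1 and 2.

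Gclc, on chromosome 8, encodes the catalytic subunit of glutamate-cysteine ligase, the rate-limiting enzyme of glutathione synthesis. It stood at 12.2 FPKM in control 1+2 and 14.99 in control 3, at 43.1, 47.1, 12.4 and 10.5 in SAP libraries 1 to 4, and at 10.8, 8.71, 11.8 and 11.9 in JZL184 libraries 1 to 4. SAP libraries 1 and 2 stood far above all others, and the JZL184 libraries lay below both control samples. For Gclc this gave a log2 fold change of 0.84 ± 0.62 in SAP against control, -1.17 ± 0.44 in JZL184 against SAP and -0.37 ± 0.24 in JZL184 against control (edgeR adjusted p = 0.513, 0.182 and 0.358). Without SAP libraries 1 and 2, these became -0.32 in SAP against control and -0.03 in JZL184 against SAP.

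Gclm, on chromosome 2, encodes the modifier subunit, which raises the activity of the enzyme. It stood at 3.63 FPKM in control 1+2 and 4.84 in control 3, at 6.31, 9.01, 4.94 and 4.54 in SAP libraries 1 to 4, and at 5.85, 10.4, 22.5 and 11.9 in JZL184 libraries 1 to 4. JZL184 libraries 2 to 4 exceeded every SAP library, and all 4 exceeded both control samples. The log2 fold change was 1.54 ± 0.51 in JZL184 against control (edgeR adjusted p = 0.114, DESeq2 adjusted p = 0.0334) and 1.2 ± 0.4 in JZL184 against SAP (edgeR adjusted p = 0.148, DESeq2 adjusted p = 0.0583). SAP against control gave 0.37 ± 0.35 (edgeR adjusted p = 0.591).

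The fitted fold changes of the subunits had opposite signs in both comparisons of the JZL184 group, a contrast picked after the values were seen. The ratio of Gclc to Gclm in FPKM was 3.37 in control 1+2 and 3.10 in control 3, 6.83, 5.22, 2.51 and 2.30 in SAP libraries 1 to 4, and 1.84, 0.839, 0.525 and 0.999 in JZL184 libraries 1 to 4. Each JZL184 library had a lower ratio than every SAP library and both control samples. The mean of 1.05 ± 0.564 in the JZL184 group (n = 4) lay below 4.22 ± 2.19 in the SAP group (n = 4, exact permutation p = 0.0286) and 3.23 ± 0.191 in the control group (n = 2, exact permutation p = 0.0667), in both cases the smallest p the design allows. SAP and control overlapped (exact permutation p = 0.733). Because the contrast was picked from these same values, the p-values only describe the separation and are no evidence for it. As a difference of edgeR log2 fold changes, Gclc minus Gclm was -2.37 in JZL184 against SAP, with -2.58 to -1.49 over the alternative fits, and -1.91 in JZL184 against control, with -2.13 to -1.56.

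**Figure D3:**
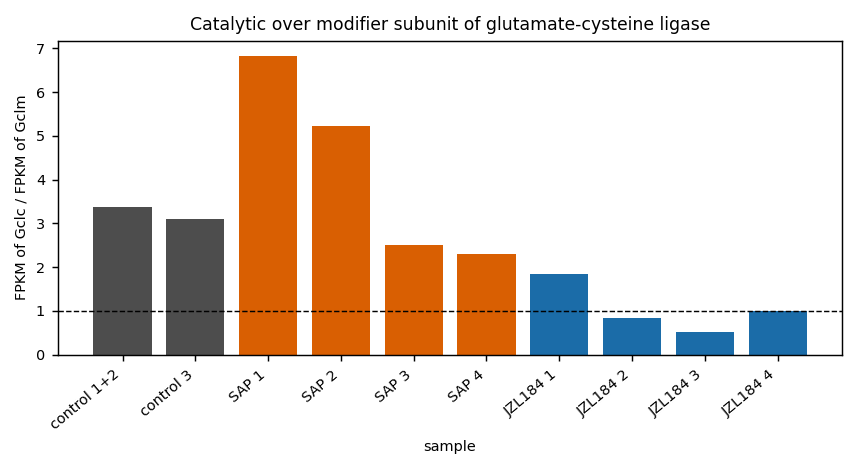
FPKM of Gclc, the catalytic subunit, divided by that of Gclm, the modifier subunit, in each sample, with a dashed line at a ratio of 1. The 4 JZL184 libraries lie between 0.525 and 1.84, below the SAP libraries at 2.30 to 6.83 and the control samples at 3.10 and 3.37.

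Txnrd1 and Srxn1 serve the thioredoxin and peroxiredoxin system. Txnrd1, cytosolic thioredoxin reductase on chromosome 7, stood at 17.5 FPKM in control 1+2 and 20.3 in control 3, at 65.1, 59.6, 23.9 and 14.4 in SAP libraries 1 to 4, and at 32.5, 29.7, 48.3 and 42.6 in JZL184 libraries 1 to 4. Like Gclc it was highest in SAP libraries 1 and 2, but unlike Gclc it was above both control samples in every JZL184 library. JZL184 against control gave a log2 fold change of 0.98 ± 0.29 (edgeR adjusted p = 0.0947, DESeq2 adjusted p = 0.0638), SAP against control 0.90 ± 0.57 (edgeR adjusted p = 0.475) and JZL184 against SAP 0.12 ± 0.41 (edgeR adjusted p = 0.875). Without SAP libraries 1 and 2 the last pair of values became -0.06 and 1.05. Srxn1, on chromosome 3, encodes sulfiredoxin, which repairs overoxidised peroxiredoxins. It stood at 12.1 FPKM in control 1+2 and 11.6 in control 3, at 14.6, 11.1, 6.38 and 6.6 in SAP libraries 1 to 4, and at 11.7, 23.8, 15.02 and 15.8 in JZL184 libraries 1 to 4. JZL184 libraries 2 to 4 lay above all SAP libraries and control samples. The log2 fold change of JZL184 against SAP was 1.0 ± 0.35 (edgeR adjusted p = 0.163, DESeq2 adjusted p = 0.0882, exact permutation p = 0.0571), against -0.49 ± 0.36 in SAP against control and 0.48 ± 0.38 in JZL184 against control (edgeR adjusted p = 0.514 and 0.444).

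Gpx2, on chromosome 6, is the glutathione peroxidase typical of the intestinal epithelium. It stood at 184 FPKM in control 1+2 and 119 in control 3, at 153, 112, 120.29 and 124 in SAP libraries 1 to 4, and at 129.88, 314, 85.1 and 218 in JZL184 libraries 1 to 4. All 3 groups overlapped, with both the highest and the lowest value in the JZL184 group. For Gpx2 this gave a log2 fold change of -0.44 ± 0.31 in SAP against control, 0.77 ± 0.42 in JZL184 against SAP and 0.31 ± 0.57 in JZL184 against control (edgeR adjusted p = 0.504, 0.305 and 0.759). The sign turned in SAP against control with length offsets (0.08), and in JZL184 against control without JZL184 library 2 (-0.15), without control 3 (-0.03) and with the replicate block (-0.13). The summed epithelial markers lay below the control range in every library with SAP, at 22597 to 23062 FPKM in the control, 8739 to 17299 in the SAP and 6477 to 15833 in the JZL184 group. The markers did not vary alike. Over all samples Fabp2 ran from 266 to 9126, Krt20 from 1082 to 8224, Krt8 from 1202 to 4425, Vil1 from 64 to 495 and Cldn7 from 135 to 414. Epcam ran only from 2220 to 3814 and Cdh1 from 106 to 194. The bearing of the sum on Gpx2 was not tested.

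The 10 genes did not move as a block within a group. Over the mean of the control samples, SAP library 1 had 9 members higher, 5 of them by over 2-fold, and SAP library 4 had 5 higher and 0 by over 2-fold. The median fold of the members was 2.16, 1.60, 1.14 and 0.944 in SAP libraries 1 to 4 and 1.39, 2.04, 2.41 and 1.85 in JZL184 libraries 1 to 4. For 6 of the 10 members SAP libraries 1 and 2 both lay above libraries 3 and 4. Neither this split nor the counts per library were made over all genes, so they are not particular to the members. Over all genes, the chi-square per gene was 337.03 to 563.06 between SAP library 1 or 2 and SAP library 3 or 4. It was 85.46 between SAP libraries 1 and 2 and 99.09 between SAP libraries 3 and 4. The mean of libraries 1 and 2 over that of libraries 3 and 4 was 6.55 for Slc7a11, 3.94 for Gclc, 3.25 for Txnrd1, 1.98 for Srxn1, 1.62 for Gclm and 1.32 for Nfe2l2, but 1.14 for Sod2, 1.09 for Gpx2, 0.941 for Hmox1 and 0.667 for Nqo1. These 6 stood at percentiles 97, 60.6, 61.8, 49.9, 22 and 84.1 of transcript length, in that order. Sod2, Gpx2, Hmox1 and Nqo1 stood at percentiles 34.8, 12.5, 35.3 and 21.3, so all of the 6 but Gclm were longer than each of them. With each library's trend on gene length removed, the log2 fold change in SAP against control went from 2.1 to 1.23 for Slc7a11, from 0.84 to 0.68 for Gclc and from 0.90 to 0.73 for Txnrd1, and the part of gene length in the split was not tested further. SAP library 2 was the one with many reads on the gene taken as Xist. Without it alone, Slc7a11, Gclc and Txnrd1 had 1.48, 0.52 and 0.70 in SAP against control. Sod2 and Hmox1 stood at 1.39 and 1.06 (edgeR adjusted p = 0.616 and 0.736). In JZL184 against SAP without that library, Sod2 had 1.23 and Hmox1 1.73 (edgeR adjusted p = 0.226 and 0.248).

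**Figure D4:**
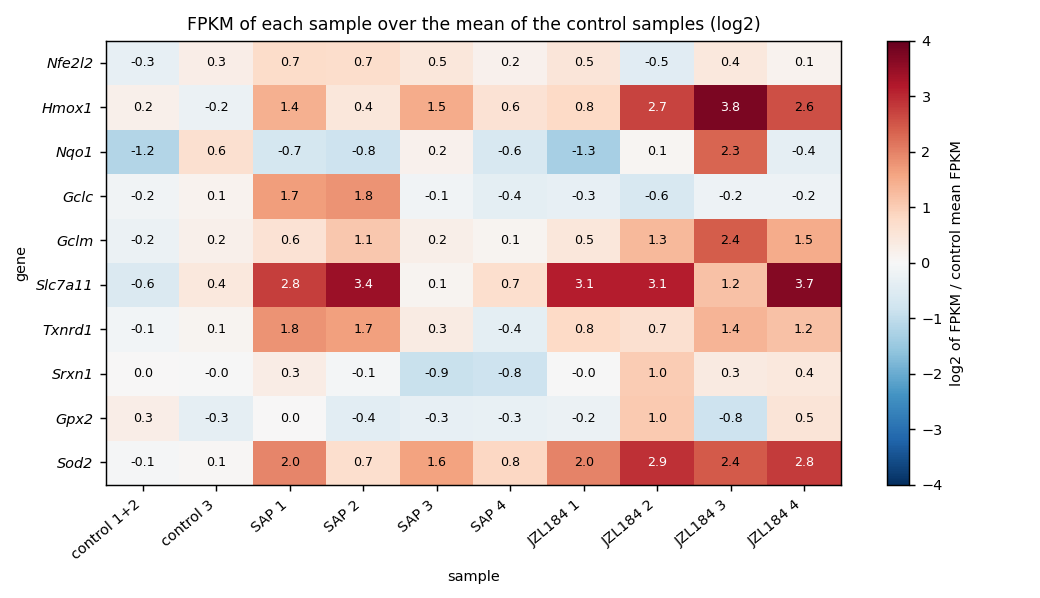
FPKM of each gene in each sample over the mean of the 2 control samples, as log2 values printed in the cells, on a colour scale centred at 0. Gclc stands above the control mean in SAP libraries 1 and 2 and in no JZL184 library, while Hmox1 and Sod2 are highest in JZL184 libraries 2 to 4.

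The pathway around the members was described with a list of 75 other genes in 7 groups, of which 74 were tested. In SAP against control 25 were higher and 49 lower, with a median log2 fold change of -0.27, and edgeR called 0 (8 at an unadjusted p below 0.05, where 9.09% of all genes passed), DESeq2 called 2 (1.23% of all genes) and limma-voom 0 (0.0873%). In JZL184 against SAP 47 were higher and 27 lower, with a median of 0.22, and edgeR called 0 (14 at an unadjusted p below 0.05, where 21.3% of all genes passed), DESeq2 called 3 (6.98% of all genes) and limma-voom 2 (4.57%). In JZL184 against control 34 were higher and 40 lower, with a median of -0.09, and edgeR called 1 (2.16% of all genes), DESeq2 9 (10.8%) and limma-voom 14 (18.3%). Of the 9 called by DESeq2, 3 were higher and 6 lower. At an unadjusted edgeR p below 0.05, 7 were higher and 11 lower, where 26.3% of all genes passed. So the members had positive medians in all 3 comparisons, while the median of the wider list was positive only in JZL184 against SAP. Members and list were chosen with earlier results of these data known, so this is a description, and it was not tested.

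By group, the wider list was uneven, and these counts of direction were not tested. They were also not repeated without SAP libraries 1 and 2, which held reads of longer genes. Over all genes tested, 7496 of 16029 were lower in SAP against control and 7322 of 15916 in JZL184 against control. In JZL184 against SAP, 7256 of 15308 were higher. Of 21 glutathione genes, 12 were lower in SAP against control and 17 higher in JZL184 against SAP. Gsta1, a glutathione transferase that shares sequence with other alpha-class genes, averaged 10.4 ± 3.41 FPKM in the control (n = 2), 23.5 ± 2.68 in the SAP (n = 4) and 46.1 ± 11.3 in the JZL184 group (n = 4), with no overlap between any 2 groups. Groups did not overlap for 23.2% of all genes in SAP against control, 11.8% in JZL184 against SAP and 38.3% in JZL184 against control. Gsta1 rose in JZL184 against control by 2.13 ± 0.37 on the log2 scale (edgeR adjusted p = 0.0339, DESeq2 adjusted p = 2.3e-05), and against SAP it differed by 1.13 ± 0.27 (edgeR adjusted p = 0.0909, DESeq2 adjusted p = 0.00798). Ggt1, a gamma-glutamyl transferase of the brush border that breaks down glutathione outside the cell, averaged 59.8 ± 18.5 FPKM in the control and 18.5 ± 11.7 in the SAP group, a log2 fold change of -1.82 ± 0.59 (edgeR adjusted p = 0.459). In the JZL184 group it averaged 8.15 ± 5.08, a log2 fold change of -2.89 ± 0.86 against control that DESeq2 called and edgeR did not (edgeR adjusted p = 0.0943, DESeq2 adjusted p = 0.00333). Among the 9 regulators, 7 were higher in JZL184 against SAP, led by the small MAF partner Maff at 22.5 ± 8.56 against 9.83 ± 2.19 FPKM, which was called by DESeq2 (adjusted p = 0.0194) and not by edgeR (adjusted p = 0.11).

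Of 11 thioredoxin and peroxiredoxin genes, 9 were lower in SAP against control, where 7496 of 16029 were lower over all genes. Each of these 9 was lower in FPKM in SAP libraries 1 and 2 than in libraries 3 and 4, so the count leans on those libraries. Prdx6, a peroxidase that reduces lipid peroxides, had a log2 fold change of 2.07 ± 0.66 in JZL184 against SAP (edgeR adjusted p = 0.144, DESeq2 adjusted p = 0.0225), in which JZL184 library 3 stood at 265.58 FPKM and the other JZL184 libraries at 27.3 to 43.5. Prdx2, a cytosolic peroxiredoxin, had -1.11 ± 0.27 in JZL184 against control (edgeR adjusted p = 0.0656, DESeq2 adjusted p = 0.0228). Of 6 genes of the pentose phosphate pathway and of other enzymes that make NADPH, 5 were lower in both comparisons against control, among them Taldo1, transaldolase, with -0.80 ± 0.31 in SAP against control (edgeR adjusted p = 0.459).

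Of 8 heme and iron genes, 7 were lower in SAP against control, where 7496 of 16029 were lower over all genes. Most of these 7 were lower in FPKM in SAP libraries 1 and 2 than in libraries 3 and 4. Blvra was not, at 20.1, 24.8, 24.4 and 20.1 in SAP libraries 1 to 4. Blvra, the biliverdin reductase that follows heme oxygenase, averaged 42.0 ± 4.54 FPKM in the control, 22.3 ± 2.58 in the SAP and 19.0 ± 3.79 in the JZL184 group. Its group means were thus in the reverse order of those of Hmox1. Within the JZL184 group this did not hold, as library 3 had the highest value of both, 23.18 for Blvra and 81.62 for Hmox1. It was called lower by DESeq2 in SAP against control (-1.08 ± 0.26 by edgeR, edgeR adjusted p = 0.449, DESeq2 adjusted p = 0.0442) and in JZL184 against control (-1.18 ± 0.27, edgeR adjusted p = 0.0609, DESeq2 adjusted p = 0.0153). Slc48a1, a heme transporter, averaged 10.1 ± 5.59 FPKM in the JZL184 against 4.23 ± 1.26 in the SAP group (log2 fold change 1.41 ± 0.48, edgeR adjusted p = 0.159). Of the 15 detoxification and export genes tested, 8 were lower in SAP against control, which is near the share over all genes. Ugt1a1, a bilirubin glucuronosyltransferase whose last exons are shared with its family, averaged 1.51 ± 0.187 FPKM in the control, 6.70 ± 3.40 in the SAP and 8.43 ± 4.32 in the JZL184 group, and was called by DESeq2 in both comparisons against control (adjusted p = 0.0203 and 2.8e-04). Cbr1, a carbonyl reductase, had -1.12 ± 0.26 in JZL184 against control (edgeR adjusted p = 0.0631, DESeq2 adjusted p = 0.019). Sesn2, a stress-induced sestrin and 1 of 4 genes on superoxide and peroxide, averaged 12.8 ± 4.62 FPKM in the SAP against 5.79 ± 0.508 in the JZL184 group, a log2 fold change of -0.96 ± 0.26 (edgeR adjusted p = 0.11).

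**Figure D5:**
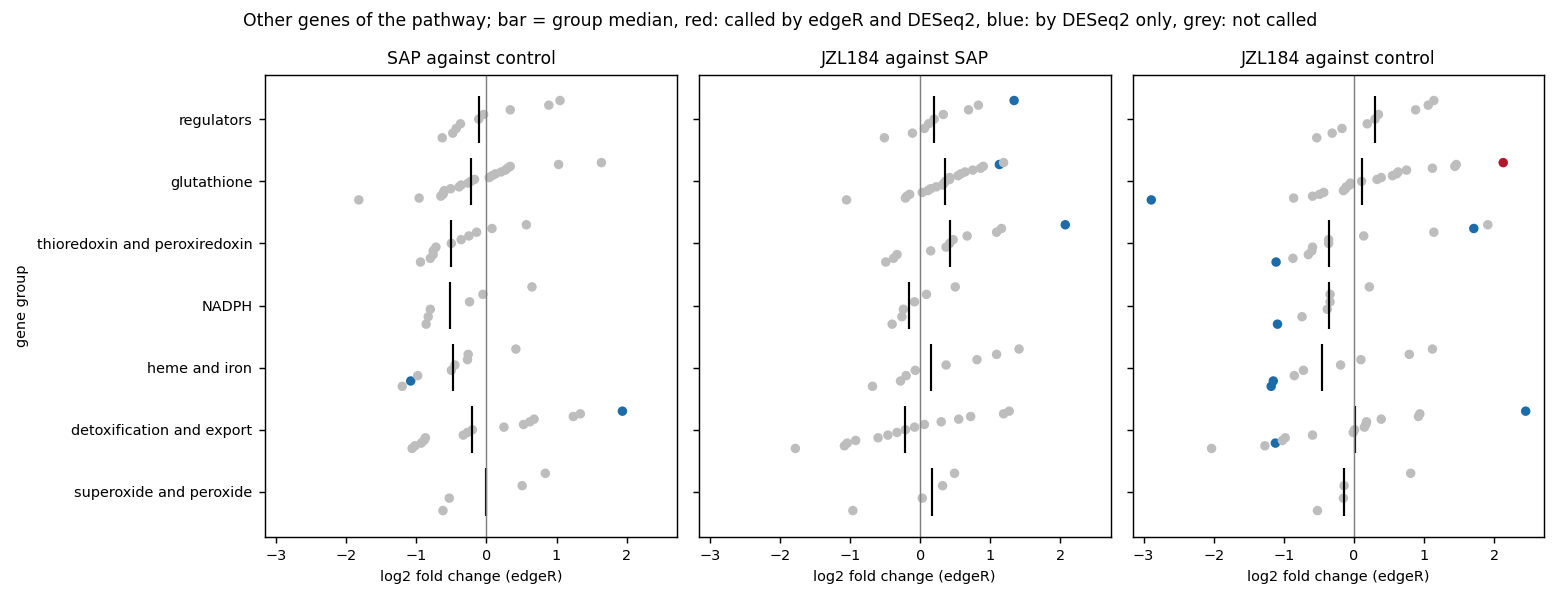
Log2 fold change (edgeR) of the 74 tested genes of the wider list by group, with a bar for the median of each group, and colours for the tools that called a gene. The single red point is Gsta1 in JZL184 against control, at 2.13.

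The genes whose pattern was most like a member's were sought for the 3 members with the widest range, by the root mean square difference of centred log2(FPKM + 1) over the 10 samples among 11092 genes. Adding 1 shrinks the range of low genes, so Slc7a11, whose highest FPKM was 19 times its lowest against 16 times for Hmox1, came last in this order. Nearest to Hmox1 were Map3k8 (0.46), Ifitm3 (0.48) and Eva1c (0.48). Nearest to Sod2 were Ogfrl1 (0.34), Steap4 (0.37) and Ifitm3 (0.39), and Ifitm3 stood at 107 and 118 FPKM in the control samples, 160 to 262 in the SAP and 268 to 619 in the JZL184 libraries. Nearest to Nqo1 were Higd1a (0.43), Nupr1 (0.49) and Hspb1 (0.50), and each of these peaked in JZL184 library 3, with Nupr1 at 1382 FPKM there and 146 to 307 in the other JZL184 libraries. No other member was among the 3 nearest genes of these members. The difference between Hmox1 and Sod2 was 0.58, and that between Hmox1 and Gclc 1.55, the largest of any 2 members.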

How the data were processed

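Per the labels, stranded mRNA libraries of rat ileum were sequenced on a NovaSeq. After trimming, the authors used HISAT2 with mRatBN7.2 and deposited a count of uniquely aligned reads per gene, without normalization. The authors also deposited FPKM, which is scaled for gene length and library size. The sources used here name neither the counting tool nor the gene annotation.

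The members and lists were chosen with earlier results of these data known. Pairs of groups were compared on the counts in edgeR 4.0.16 (R 4.3.3), with its quasi-likelihood test, with TMM and filterByExpr (minimum count 10). A call needed a Benjamini-Hochberg adjusted p below 0.05 over all genes tested and a fold change above 2 or below 0.5. Control libraries 1 and 2 were summed, and their FPKM averaged, after a chi-square test over genes with 20 or more reads. DESeq2 1.42.0, limma-voom (limma 3.58.1) and other settings were alternatives. FPKM of single genes were compared with two-sided exact permutation tests, unadjusted. Gene length was derived from counts and FPKM, and a lowess trend (span 0.3) gave the length offsets. The code was tested on simulated counts.

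Beside all members, the genes named were Keap1, Bach1, the 5 genes of the wider list with the smallest edgeR p per comparison, those edgeR called, and the 3 nearest genes of the 3 members with the widest range. The depth of 26341299 to 33847135 reads per library made counting error small for all members but Slc7a11.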

Additional observations from a re-analysis of the deposited data

Results flagged for a closer look

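Of 20 pairs of a member and a group of 4 libraries, 2 held a library far from the other 3 by Dixon's test at the 95% level, which chance gives in about 1 in 20 groups. Both concerned Nqo1. In the SAP group library 3 stood at 21.99 FPKM with the next at 12.5, a gap of 0.855 of the group's range. In the JZL184 group library 3 stood at 99.24 FPKM with the next at 20.6, a gap of 0.86 of the range. Both libraries are numbered 3, but the labels do not say that the numbers pair animals.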

How the results depend on the processing

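Of 500 values of single members under alternative settings, 451 kept direction and side of the threshold, 29 passed it newly, 4 lost it and 16 reversed, and 21 of 30 results reversed under no setting. Counts of calls depended on the tool and on single libraries. For the members, SAP against control (0 by edgeR) gave 2 in DESeq2 with control libraries 1 and 2 separate and 0 to 0 with a library left out. JZL184 against SAP (0) gave 2 in DESeq2, 1 in limma-voom and 0 to 2 with a library left out. JZL184 against control (1) gave 4 in DESeq2 with either treatment of the control libraries, 5 in limma-voom, 5 with the control libraries separate, 3 without the count filter and 0 to 5 with a library left out. For the wider list, SAP against control (0) gave 2 in DESeq2, 4 in DESeq2 with separate control libraries and 0 to 0 with a library left out. JZL184 against SAP (0) gave 3 in DESeq2, 2 in limma-voom and 0 to 4 with a library left out. JZL184 against control (1) gave 9 in DESeq2, 17 in DESeq2 with separate control libraries, 14 in limma-voom, 14 with separate control libraries, 4 without the filter, 2 with all 3 groups in 1 fit and 0 to 14 with a library left out. Where a control sample was left out, the lone one was assumed to vary like the other group. Over all genes in JZL184 against control, DESeq2 called 1899 of 17598 and, with separate control libraries, 3498 of 18021. There limma-voom called 2906 of 15916, edgeR with separate control libraries 2800 of 15427, and edgeR without the filter 929 of 23630. In JZL184 against SAP without JZL184 library 1, edgeR called 655 of 15540. Over all genes, calls ran from 0 to 1434 in SAP against control, from 0 to 1283 in JZL184 against SAP and from 0 to 3498 in JZL184 against control, where edgeR called 0, 0 and 343.

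The replicate numbers were tried as a block. Deviations of same-numbered libraries correlated at -0.45 to 0.12. Correlations between libraries of unlike number were not computed, so this range has no reference. The labels do not say what the numbers stand for. With the block (control libraries separate), 2 members and 11 genes of the wider list were called in JZL184 against control, and 6 of the wider list with the block and length offsets, against 5 and 14 without the block. Of 15427 genes, 1488 were called with the block, 1196 with block and length offsets and 2800 without the block. Gpx2 in JZL184 against control became -0.13 with the block, and with block and length offsets SAP against control became -0.01 for Nfe2l2, 0.35 for Nqo1, 0.09 for Gpx2 and -0.12 for Gclc minus Gclm.

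The other log2 values that reversed belonged to members that edgeR had not called. With length offsets alone, SAP against control gave -0.01 for Nfe2l2, 0.08 for Gpx2 and -0.09 for Gclc minus Gclm, and JZL184 against control gave -0.05 for Nfe2l2. Without SAP libraries 1 and 2, SAP against control gave -0.32 for Gclc, -0.06 for Txnrd1 and -0.42 for Gclc minus Gclm, and in JZL184 against SAP the last was -1.49. With 1 library left out, Nqo1 ran from -1.18 to 0.51 in SAP against control (lowest without control 1+2, highest without control 3, and -0.88 without SAP library 3) and from -0.35 to 1.89 in JZL184 against control (lowest without JZL184 library 3). Txnrd1 ran from -0.13 to 0.43 in JZL184 against SAP, with -0.05 and -0.13 without SAP library 3 or 4. In JZL184 against control Nfe2l2 became -0.07 without control 1+2, and Gpx2 ran from -0.15 to 0.72, with 0.57 without JZL184 library 3, -0.03 without control 3 and -0.15 without JZL184 library 2. The causes were not tested. With 2 control samples, single genes could not pass an exact test against control.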
